A study of Mus musculus with 16 samples.

Results

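This comparison asks how transcripts of mouse ovarian follicles kept without added anti-Müllerian hormone (AMH) differed between 12 h and 24 h of culture. It rests on 8 of the series' 16 Affymetrix arrays: 4 of untreated follicles collected after 12 h and 4 of untreated follicles collected after 24 h, chosen by the titles the submitters gave. The follicles, from preantral to small antral in stage, were dissected from female C57BL/6Tac mice whose age is labelled as 8 weeks and given as 6 to 8 weeks in the study's design. For each experiment the follicles of 8 mice were pooled and distributed to single drops of medium with 0 ng/ml (control) or 50 ng/ml recombinant AMH. Both gonadotropins were in the medium of all groups, controls included: FSH (follicle-stimulating hormone) at 80 IU/L and LH (luteinizing hormone) at 10 IU/L. Each array was made from 6 to 9 follicles and 5 ng of amplified total RNA, so 1 array averages several follicles and all cell types left on them. The labels do not say that the 12 h and 24 h cultures shared a pool of mice, and the times were compared as unpaired groups. Where separate pools are not stated, p values measure only the spread between these arrays. No follicles from before culture were analysed here, so each difference is between both times in culture and has no starting level.

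A follicle is an oocyte surrounded by granulosa cells, with theca cells outside a basement membrane. FSH drives granulosa cells to divide, to make inhibin and to carry the enzymes of oestradiol synthesis. The LH surge acts through EGF-like ligands and MAP kinase and switches granulosa and cumulus cells to an ovulatory programme of hyaluronan matrix, prostaglandins and proteases. Tissue that is cut and placed in medium also switches on a brief early response of transcription factors and cytokines.

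Values are log2(signal + 1.46) of the deposited signals, and a change is the 24 h mean minus the 12 h mean on that scale, so a change of 1 is a doubling. Low signals are compressed by the offset, which understates the changes of genes near it. After the filter on low signals 12172 genes were tested, each through 1 probe set, and a gene is called where the adjusted p of the limma test is under 0.05. The 4 arrays per group limit the precision.

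The 8 arrays had median signals from 27.8 to 32.8 at 12 h and from 30.7 to 40.2 at 24 h, where replicate 1 held the highest. Its lower quartile of 10.3 stood above the 5.73 to 7.84 of the other control arrays. The log2 ratio of the 3′ to the 5′ Gapdh probe sets, a sign of RNA quality, lay between 0.49 and 0.91 at 12 h and between 0.64 and 0.76 at 24 h. On the first principal component, with 43.6% of the variance, the 12 h arrays lay between -50.1 and -22.4 and the 24 h arrays between 18.8 and 38.9. On the second, with 21.3%, replicate 3 at 12 h (33.9) and replicate 4 at 24 h (36.6) lay opposite replicate 4 at 12 h (-36.8). The oocyte marker mean had the same extremes, at 9.11 and 8.77 against 6.67. Without replicate 1 at 24 h 1776 genes were called, against 2330 with all arrays. Leaving out any control array lowered the count, to between 1705 (replicate 3 at 24 h) and 2189 (replicate 4 at 24 h).

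Between 12 h and 24 h, 1212 genes rose and 1118 fell, that is 9.96% and 9.19% of those tested, and 19.1% in either direction. Without centring of the arrays, the median of the rises was 0.90 and that of the falls -0.65. The genes that rose lay at lower signal, with a median level of 7.23 against 8.21 for those that fell. A change of at least 1 was found for 508 of the genes that rose and 274 of those that fell, and of at least 2 for 79 and 52. The 4 arrays of one time lay wholly above the 4 of the other for 2715 genes (22.3%), 11.4% higher and 10.9% lower at 24 h. The split, and the sizes of rises against falls, depend on the scaling. Centring each array on its own median moved the median of all genes from -0.01 to -0.19. With that centring 612 of 2485 called genes (24.6%) were higher at 24 h, against 52.0% without it, and changes close to 0 below have to be read with this shift.

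**Figure D1:**
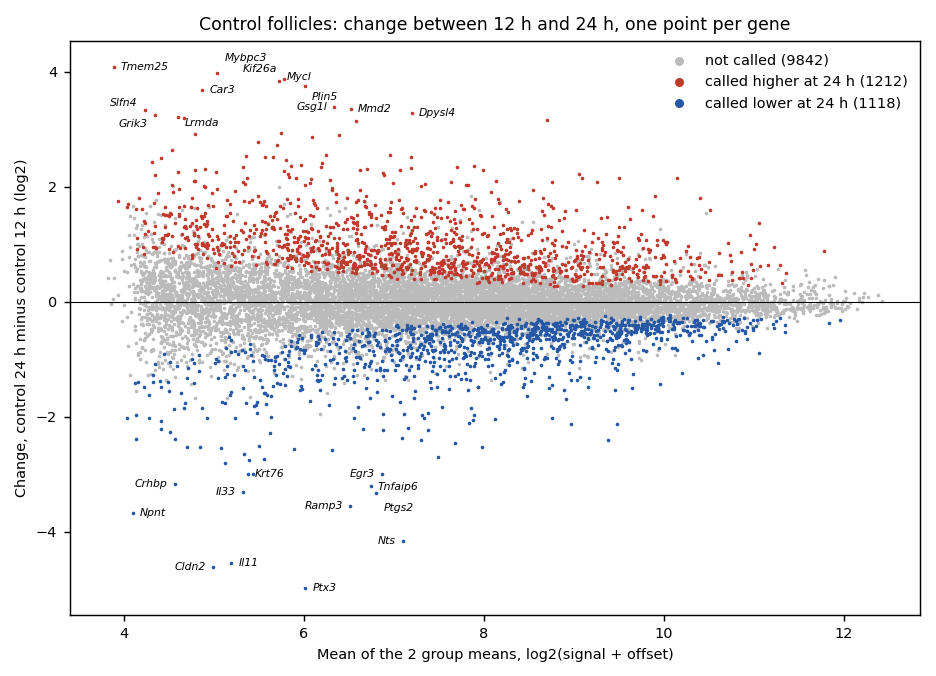
Change of each of the 12172 genes from 12 h to 24 h in control follicles (vertical, log2) against the mean of both group means (horizontal, log2 of signal + offset), coloured by call at adjusted p under 0.05. The 12 largest rises and 12 largest falls among genes whose groups did not overlap are named, and most of them have a low signal at one of the times.

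The 12 largest falls included genes of the ovulatory matrix, a cytokine, a prostaglandin synthase and an immediate-early factor. The largest was that of Ptx3, pentraxin 3, a protein that cross-links the hyaluronan of the expanding cumulus. Its 12 h arrays read 8.66, 10.26, 5.05 and 10.09 and its 24 h arrays 3.53, 2.95, 3.71 and 3.92. All 4 later arrays lay below the earlier ones, but replicate 3 at 12 h lay far under its group. The change was -4.99 (SE 0.82, adjusted p = 0.00077), 31.7-fold. Cldn2, a claudin of tight junctions, went from 7.02, 7.98, 7.91 and 6.31 to 3.33, 2.20, 2.77 and 2.44, a change of -4.62 (SE 0.62, adjusted p = 0.00021). Npnt, nephronectin, an integrin ligand of basement membranes, went from 6.24, 5.67, 6.09 and 5.74 to 1.12, 3.02, 2.05 and 2.88. Neither gene's groups came near each other. The other falls were Il11 (-4.55), Nts (-4.17), Ramp3 (-3.55), Ptgs2 (-3.33), Il33 (-3.31), Tnfaip6 (-3.20), Crhbp (-3.16), Krt76 (-3.0) and Egr3 (-3.0). Ramp3 is a partner of the adrenomedullin receptor and Crhbp binds corticotropin-releasing hormone. The 12 falls spanned 7.99- to 31.7-fold, with adjusted p between 1.9e-05 and 0.00095, and all 12 were still called without each of the 8 control arrays in turn. For 7 of the 12 the 24 h mean lay below the filter level of 4.18, so the size of the fall rests on low signals at 24 h.

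The 12 largest rises included genes of muscle, lipid droplets, neurons and transcription. Mybpc3, the cardiac myosin-binding protein C, read 3.53, 1.88, 3.41 and 3.37 at 12 h and 5.90, 6.93, 7.60 and 7.71 at 24 h. Its lowest 24 h array stood more than 2 units above its highest 12 h array, and the change was 3.99 (SE 0.49, adjusted p = 0.0001), 15.8-fold. Mycl, a member of the Myc family, went from 4.46, 3.66, 3.16 and 3.95 to 5.57, 7.81, 8.46 and 8.76, a change of 3.84 (SE 0.74, adjusted p = 0.0024). Replicate 1 at 24 h was the low one of its group. Mmd2 had the smallest spread, from 4.77, 5.16, 4.72 and 4.74 to 7.76, 8.27, 8.37 and 8.39, a change of 3.35 (SE 0.34, adjusted p = 1.9e-05). Plin5, which coats lipid droplets, changed by 3.75 (SE 0.81), and Car3, carbonic anhydrase 3, by 3.68 (SE 0.56). The others were Tmem25 (4.09), Kif26a (3.88), Gsg1l (3.39), Slfn4 (3.33), Dpysl4 (3.28), the glutamate receptor subunit Grik3 (3.26) and Lrmda (3.20). For 9 of the 12 the 12 h mean lay below the filter level. Called without each array in turn were 10 of 12. Slfn4 lost its call without replicate 3 at 12 h (2.88) or at 24 h (2.76), and Lrmda without replicate 2 or 3 at 12 h (2.97, 2.63) or replicate 1 or 2 at 24 h (2.67, 2.94).

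Of 20 tested genes for the cumulus matrix and its proteases 12 fell and 1 rose, with a median change of -0.77 against -0.01 for all genes, and the median was -0.95 with median centring. Has2, which makes hyaluronan, read 6.00, 7.00, 7.12 and 6.95 at 12 h and 3.47, 3.57, 4.74 and 4.31 at 24 h, a change of -2.75 (SE 0.42, adjusted p = 0.00051). Tnfaip6, which links hyaluronan to inter-alpha-inhibitor, went from 7.77, 9.46, 7.19 and 8.95 to 5.59, 4.67, 5.13 and 5.19, a change of -3.20 (SE 0.47, adjusted p = 0.00036). Cd44, the hyaluronan receptor, went from 9.08, 8.83, 8.63 and 9.08 to 6.23, 6.40, 7.38 and 7.40, a change of -2.05 (SE 0.29, adjusted p = 0.00029). In all 3 the groups were apart, and the 24 h mean of Has2 was below the filter level. Members named after their values were seen are the urokinase receptor Plaur (-1.97), the proteases Adamts4 (-1.44) and Mmp19 (-1.43) and the matrix proteoglycan Vcan (-0.81), all called lower. The member that rose was the metalloproteinase Mmp11, from 10.11, 9.61, 8.70 and 9.60 to 11.21, 11.64, 11.35 and 11.01. Its change was 1.80 (SE 0.38, adjusted p = 0.0042).

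EGF-like ligands and the inhibitors that feed back on their signal were both lower at 24 h. Of 20 tested EGF-like ligands and MAP kinase feedback genes 9 fell and 0 rose, with a median of -0.84. Btc, betacellulin, read 8.39, 9.02, 8.97 and 8.99 at 12 h and 6.59, 5.30, 6.50 and 6.16 at 24 h, a change of -2.71 (SE 0.28, adjusted p = 2.5e-05). Ereg, epiregulin, went from 8.89, 8.33, 10.14 and 9.60 to 7.12, 6.50, 5.82 and 7.41, a change of -2.53 (SE 0.49, adjusted p = 0.0023). For both ligands the 24 h arrays lay below all 12 h arrays. Among the inhibitors, Errfi1, which blocks the EGF receptor kinase, changed by -1.42 (SE 0.17), Spry2 by -1.49 (SE 0.25) and Spred2 by -1.0 (SE 0.16). The phosphatases Dusp5 (-1.83) and Dusp6 (-0.96) and the ligand Hbegf (-1.23) were called lower too, and were named after their values were seen. The ligand Areg had no probe set under its symbol and was not analysed here.

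Prostaglandin and neuropeptide genes of ovulation moved in both directions, 6 lower and 3 higher of 15 tested. Ptgs2, the inducible prostaglandin synthase, read 7.82, 8.22, 9.14 and 8.70 at 12 h and 6.00, 5.57, 4.30 and 4.69 at 24 h. The change was -3.33 (SE 0.41, adjusted p = 0.00011), and its second probe set was called the same way. Slco2a1, a prostaglandin transporter, changed by -0.89 (SE 0.24). Hpgd, which breaks prostaglandins down, went the other way, from 6.61, 5.66, 4.71 and 6.06 to 7.63, 7.90, 8.91 and 7.54. Its change was 2.24 (SE 0.61, adjusted p = 0.018), and the call was lost without replicate 3 at 12 h (1.89) or replicate 3 at 24 h (1.93). Nts, neurotensin, fell from 8.95, 9.02, 8.62 and 10.16 to 5.82, 4.55, 4.91 and 4.79, a change of -4.17 (SE 0.42, adjusted p = 1.9e-05). Nppc, the precursor of the C-type natriuretic peptide that holds the oocyte in meiotic arrest, went from 6.26, 5.79, 6.48 and 5.63 to 6.47, 7.40, 8.07 and 7.38. Its change of 1.29 (SE 0.40, adjusted p = 0.032) was called, but replicate 1 at 24 h lay within the 12 h range. The call was kept without 3 of the 8 arrays and lost without replicate 2 or 4 at 12 h (1.21, 1.16) or replicate 2, 3 or 4 at 24 h (1.27, 1.04, 1.27). The counts of this list were 3 lower without replicate 2 at 24 h and 0 higher without replicate 3 at 24 h.

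The ovulatory transcription factors as a list gave 2 higher, Nrip1 and Nr5a2, and 1 lower of 14. These shares were 14.3% and 7.14%, against 9.96% and 9.19% of all genes. The count of 2 was 0 without replicate 3 at 12 h or replicate 2 at 24 h. It was 1 without replicate 2 or 4 at 12 h or replicate 1, 3 or 4 at 24 h. With median centring 0 rose and 3 fell. The one that fell was Crem, a factor of the cAMP response, from 7.95, 8.78, 7.97 and 7.92 to 6.78, 6.48, 6.67 and 6.72 (-1.49, SE 0.25, adjusted p = 0.00077). Nrip1, a receptor corepressor needed for ovulation, was called at 0.36 (SE 0.12), a call kept without 1 of the 8 arrays, and was 0.18 and not called with median centring. The highest probe set of the progesterone receptor Pgr had a mean of 4.10, under the filter level, and was not tested. In the wider cAMP list 2 of 25 rose and 2 fell, shares near the 9.96% and 9.19% of all genes. The counts were 4 higher without replicate 2 at 12 h and 4 lower with median centring. The list median of 0.06 was -0.12 with that centring. The cyclase Adcy9 changed by 1.37 (SE 0.23) and the phosphodiesterase Pde7b by 0.84 (SE 0.21), while the kinase subunit Prkar2a changed by -0.66 (SE 0.18) and was not called without replicate 3 at 12 h (-0.52).

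Of 22 immediate-early factors, genes that stimuli switch on within minutes, 12 fell and 0 rose, with a median of -0.72. Egr3 read 8.50, 8.07, 8.32 and 8.57 at 12 h and 5.98, 3.69, 6.12 and 5.68 at 24 h, a change of -3.0 (SE 0.48, adjusted p = 0.00065). Fosl1, a partner of Jun in the AP-1 factor, went from 8.68, 8.19, 9.61 and 9.17 to 6.20, 6.49, 6.13 and 6.98, a change of -2.46 (SE 0.36, adjusted p = 0.00039). Maff changed by -1.54 (SE 0.20) and Ier5 by -1.49 (SE 0.21). Named after their values were seen, Egr2 (-1.86), Fos (-1.67), Fosb (-1.56), Egr1 (-1.01) and Jun (-0.63) were called lower as well. In these 9 genes the 24 h arrays lay below all 12 h arrays.

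Inflammatory cytokines and chemokines gave 8 lower and 0 higher of 14 tested, with a median of -0.81. Il11, a cytokine of the interleukin 6 family, read 6.87, 6.33, 8.71 and 7.98 at 12 h and 3.16, 3.45, 1.21 and 3.87 at 24 h, a change of -4.55 (SE 0.72, adjusted p = 0.00063). Socs3, the inhibitor that this family of cytokines induces, went from 9.52, 9.05, 8.65 and 8.92 to 8.11, 8.23, 7.35 and 7.76, a change of -1.17 (SE 0.25, adjusted p = 0.0048). The interleukin 1 receptor Il1r1 changed by -0.81 (SE 0.15). The chemokines Cxcl1 (-2.12) and Ccl2 (-1.74), named after their values were seen, were called lower. Il6, Il1a and Il1b had mean signals under the filter level and were not tested. The mean of the immune cell markers lay between 5.63 and 6.90 at 12 h and between 4.94 and 5.90 at 24 h, and their part in these falls was not tested.

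Promoter letters are shown for falling genes of these lists that carried a match to a stimulus-linked motif. They come from RefSeq's 300-base windows (250 bases before to 50 after each start, build GRCm38.p6), of which 9849 of the 12172 tested genes had at least 1. The searched motifs were the AP-1 site TGANTCA and the cAMP response element TGACGTCA, each on both strands. Capitals mark the match, with up to 20 bases on each side.
Tnfaip6: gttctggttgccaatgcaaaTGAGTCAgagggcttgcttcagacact
Il11: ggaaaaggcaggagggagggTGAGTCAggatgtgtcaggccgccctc
Nts: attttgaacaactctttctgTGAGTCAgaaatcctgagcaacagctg
Errfi1: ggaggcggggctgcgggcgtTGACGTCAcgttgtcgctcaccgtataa
Maff: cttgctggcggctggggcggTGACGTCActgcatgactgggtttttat
The stretches are chr2:52037951-52037997 (plus strand), chr7:4778213-4778259 (minus), chr10:102490599-102490645 (minus), chr4:150854999-150855046 (plus) and chr15:79347471-79347518 (plus). Of the 12 largest falls, 3 genes held an AP-1 match: Tnfaip6, Il11 and Nts, that is 21.4% of their 14 promoters. Of the 12 largest rises 2 held one, Plin5 and Slfn4, that is 2 of their 10 promoters. The share was 5.16% over promoters of all tested genes, 6.08% over those of genes called lower, 4.80% over those called higher and 7.81% over all promoters. The cAMP element was in 2.92% of promoters of tested genes and 2.86% of those called lower. Over all falling genes the shares were thus close to those of all tested genes. Each match is a description of these letters.

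**Figure D2:**
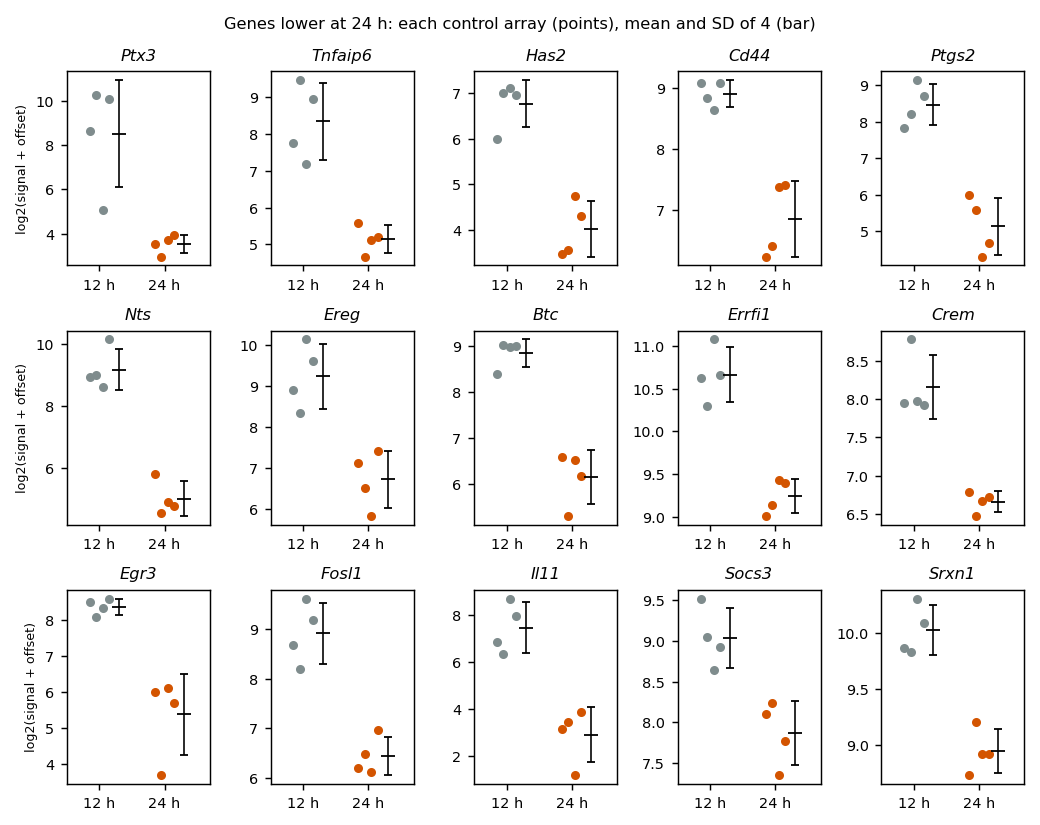
Log2(signal + offset) of 15 genes that were lower at 24 h, on each of the 4 control arrays at 12 h (grey) and 4 at 24 h (orange), with the mean and SD beside the points. The axes differ between panels and do not start at 0. In each panel the 24 h arrays lie below all 12 h arrays.

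Of 14 tested identity factors of granulosa cells 5 rose and 0 fell, with a median of 0.25. With median centring 2 rose and the median was 0.07. Foxl2, the factor that keeps granulosa cell identity, read 9.35, 9.07, 9.10 and 9.13 at 12 h and 10.02, 10.24, 10.35 and 10.46 at 24 h. The change was 1.10 (SE 0.13, adjusted p = 0.0001), 2.15-fold, with the groups well apart. Amhr2, the AMH receptor, went from 9.70, 9.80, 9.44 and 9.17 to 10.40, 10.89, 10.38 and 10.46, a change of 1.01 (SE 0.23, adjusted p = 0.007), and its other 2 probe sets were called the same way. Sox4 changed by 0.47 (SE 0.11), and was at 0.29 and not called with median centring. Nr5a2, the nuclear receptor LRH-1, changed by 1.07 (SE 0.29, adjusted p = 0.019), and its call was lost without replicate 3 at 12 h (0.80) or replicate 2 at 24 h (0.99), and with median centring (0.89). Without either of these arrays the list held 3 genes called higher.

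Of 6 tested gonadotropin and steroid receptors 3 rose, those for FSH and oestrogen, and 0 fell, with a median of 0.40. Fshr, the FSH receptor, read 4.02, 4.54, 2.56 and 4.48 at 12 h and 5.98, 6.33, 6.73 and 5.55 at 24 h. The change was 2.25 (SE 0.53, adjusted p = 0.0085), 4.76-fold, from a 12 h mean below the filter level. Esr2, the oestrogen receptor of granulosa cells, went from 5.77, 6.25, 5.39 and 5.96 to 6.78, 7.00, 7.84 and 7.79, a change of 1.51 (SE 0.39, adjusted p = 0.013). For both receptors the 24 h arrays lay above all 12 h arrays. Esr1 changed by 0.62 (SE 0.19, adjusted p = 0.028). That call was lost without replicate 2 or 4 at 12 h (0.60, 0.58) or replicate 3 or 4 at 24 h (0.56, 0.51), and with median centring (0.44). The LH receptor Lhcgr had no probe set under its symbol and was not analysed here.

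The secreted proteins of granulosa cells gave 2 higher and 1 lower of 17 (11.8% and 5.88%, against 9.96% and 9.19% of all genes). Their median of 0.17 became -0.01 with median centring. The count of 2 was 0 without replicate 2 at 24 h, 1 without replicate 2 or 3 at 12 h or replicate 3 or 4 at 24 h, and 0 with median centring. Inha, the inhibin α subunit, read 10.73, 10.99, 9.55 and 10.81 at 12 h and 11.40, 12.17, 11.31 and 11.23 at 24 h. Its change was 1.01 (SE 0.29, adjusted p = 0.021), and the call was lost without replicate 3 at 12 h (0.69) or replicate 2 at 24 h (0.80). The β subunits Inhba (0.83, SE 0.29, adjusted p = 0.054) and Inhbb (1.27, SE 0.65, adjusted p = 0.18) were not called. Kitl, the ligand for the oocyte's Kit receptor, was called at 0.54 (SE 0.17, adjusted p = 0.035), but its groups overlapped and the call was kept without only 3 of the 8 arrays. It was lost without replicate 2 or 4 at 12 h (0.53, 0.42) or replicate 2, 3 or 4 at 24 h (0.56, 0.52, 0.46). Bmp6 fell from 9.39, 9.38, 8.47 and 9.43 to 7.37, 7.68, 8.05 and 7.83, a change of -1.44 (SE 0.23, adjusted p = 0.00059). Amh itself had values of 4.23, 5.79, 4.13 and 5.55 and then 3.37, 4.04, 3.74 and 4.25, a difference of -1.08 (SE 0.47, adjusted p = 0.12), not called, on signals around the filter level. Among SMAD1/5/9 targets, the genes that AMH and bone morphogenetic proteins act on, 1 of 10 rose and 1 fell. These shares were near the 9.96% and 9.19% of all genes. The list median of 0.14 was -0.04 with median centring. Id2 changed by 0.92 (SE 0.24). Id4 changed by -0.93 (SE 0.29), with its call kept without replicate 3 or 4 at 24 h and lost without each of the other 6 arrays.

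Steroid synthesis gave 4 higher and 1 lower of 13, with a median of 0.63. These shares were 30.8% and 7.69%, against 9.96% and 9.19% of all genes. Hsd17b1, which makes oestradiol from oestrone in granulosa cells, read 8.62, 9.70, 7.34 and 9.48 at 12 h and 9.74, 10.52, 10.84 and 10.61 at 24 h, a change of 1.64 (SE 0.49, adjusted p = 0.027). Replicate 3 at 12 h was again the low array, and without it the change was 1.16 and not called. The call was also lost without replicate 1 at 12 h (1.59) or replicate 2, 3 or 4 at 24 h (1.61, 1.51, 1.58). Hsd3b1, which forms progesterone, went from 11.24, 11.60, 10.95 and 11.60 to 12.35, 12.61, 12.12 and 11.81, a change of 0.88 (SE 0.20, adjusted p = 0.007). Hsd17b7 changed by 0.87 (SE 0.21). The lipase Lipe changed by 0.73 (SE 0.24), with a call kept without 3 of the 8 arrays (0.50 without replicate 3 at 12 h) and lost with median centring (0.55). Cyp11a1, the side-chain cleavage enzyme, had values of 9.08, 9.47, 10.18 and 10.08 and then 11.61, 12.19, 11.01 and 10.19, and just missed the threshold (1.55, SE 0.53, adjusted p = 0.052) although the groups did not overlap. Star, the cholesterol carrier of mitochondria, was not called (0.20, SE 0.38, adjusted p = 0.74), with replicates 1 and 2 at 24 h above all 12 h arrays and 3 and 4 not. Cyp17a1, which theca cells use to make androgens, was not called either (0.63, SE 0.44, adjusted p = 0.34). The member called lower was Sult1e1, the oestrogen sulfotransferase, named after its values were seen (-2.99, SE 0.98, adjusted p = 0.043), with overlapping groups and the call lost without any of 5 arrays. The count of 4 higher was 2 without replicate 3 at 12 h or replicate 3 at 24 h. Aromatase, Cyp19a1, had no probe set under its symbol and was not analysed here.

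Cholesterol synthesis genes gave 2 higher and 0 lower of 19, a share of 10.5% near the 9.96% of all genes called higher. Values lay above 0 in 18 of the 19, and the median was 0.29, or 0.11 with median centring. Tm7sf2, a sterol reductase, changed by 1.58 (SE 0.35, adjusted p = 0.0059), and Hsd17b7 was the other. The count was 4 without replicate 4 at 12 h.

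**Figure D3:**
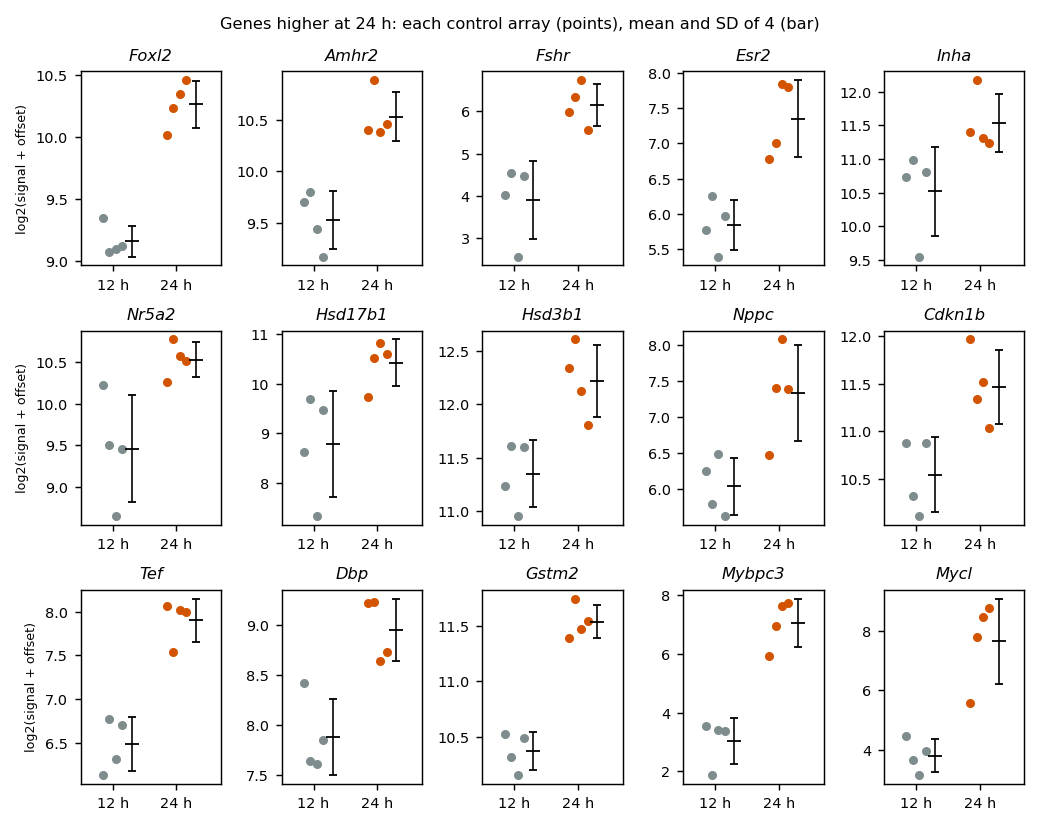
Log2(signal + offset) of 15 genes that were higher at 24 h, on each of the 4 control arrays at 12 h (grey) and 4 at 24 h (orange), with the mean and SD beside the points. The axes differ between panels and do not start at 0. In 14 of the 15 panels the 24 h arrays lie above all 12 h arrays, and in Nppc replicate 1 at 24 h lies within the 12 h range.

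Cell division genes had lower values at 24 h, but the number called depended on single arrays and on the scaling. All 29 tested mitosis genes lay below 0, with a median of -1.01, and 8 of them fell, against 20 with median centring and 11 with quantile or loess scaling. The list mean read 7.99, 8.63, 7.66 and 8.51 at 12 h and 6.40, 7.02, 7.42 and 8.03 at 24 h, so replicate 4 at 24 h lay above 2 of the 12 h arrays. Without that array 20 were called, and without replicate 3 at 12 h 14. Without replicate 2 at 12 h 2 were called, without replicate 3 at 24 h 5, and without replicate 4 at 12 h or replicate 1 or 2 at 24 h 1. The median stayed below 0 without each array, between -1.25 and -0.72. Ect2, a regulator of cytokinesis, was the member kept without every array: it went from 8.00, 8.54, 7.89 and 8.86 to 6.71, 6.56, 7.05 and 7.84, a change of -1.28 (SE 0.28, adjusted p = 0.0047). Anln, a scaffold of the contractile ring, changed by -1.19 (SE 0.34), Prc1, which bundles spindle microtubules, by -1.19 (SE 0.36) and Cdc20, an activator of the anaphase-promoting complex, by -1.15 (SE 0.35). In these 3 the groups overlapped, and the call was kept without 5, 4 and 3 of the 8 arrays. Mki67 (-1.01, adjusted p = 0.074) and Top2a (-1.37, adjusted p = 0.053), named after their values were seen, were not called.

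The promoters of the mitosis genes share a letter pattern that the lists did not use. The CHR element TTTGAA, searched on both strands, was in 87.5% of the 8 promoters of mitosis genes called lower, belonging to 5 of the 6 genes with a window, and in 76.9% of the 26 promoters of all tested mitosis genes. It was in 11.7% of promoters of tested genes and 17.9% of all promoters, and in 12.3% of the promoters of genes called lower, a share close to that of all tested genes. Of the 31 promoters of tested DNA replication genes 9.68% held it. The 4 stretches below show it in named genes, with the match in capitals.
Ect2: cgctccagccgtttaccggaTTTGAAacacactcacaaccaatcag
Prc1: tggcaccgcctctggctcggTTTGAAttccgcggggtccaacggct
Cdc20: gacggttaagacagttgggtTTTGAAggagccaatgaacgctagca
Anln: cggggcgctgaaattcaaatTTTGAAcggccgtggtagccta
They lie at chr3:27153967-27154012 (minus strand), chr7:80294426-80294471 (plus), chr4:118437336-118437381 (minus) and chr9:22389157-22389198 (minus) of GRCm38.p6.

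DNA replication genes gave 4 lower and 0 higher of 31 (12.9% lower, against 9.19% of all genes), with 29 below 0 and a median of -0.58. The count was 18 with median centring and 9 with quantile or loess scaling. Pcna, the clamp that holds the polymerase, read 10.76, 10.70, 10.64 and 10.53 at 12 h and 9.54, 10.27, 10.03 and 10.05 at 24 h, a change of -0.69 (SE 0.14, adjusted p = 0.0027). Prim1, a primase subunit, changed by -0.99 (SE 0.22, adjusted p = 0.0056). Both calls were kept without each array. Mcm6 (-0.64, SE 0.20) and Fen1 (-0.65, SE 0.20) were each kept without 3 of 8. The count was 11 without replicate 4 at 24 h and 2 without replicate 2 at 12 h or replicate 1 at 24 h.

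Among regulators of the G1 phase 1 of 19 rose and 2 fell (5.26% and 10.5%, against 9.96% and 9.19% of all genes). The list median was -0.31. The 2 that fell were not called without replicate 2 at 12 h, and 7 fell with median centring. Cdkn1b, the p27 inhibitor of cyclin-dependent kinases, read 10.87, 10.32, 10.11 and 10.88 at 12 h and 11.96, 11.34, 11.52 and 11.03 at 24 h. Its change was 0.92 (SE 0.24, adjusted p = 0.014), and it was not called without replicate 1 at 24 h (0.75, adjusted p = 0.051). Cdkn1c, the related p57 inhibitor, went the other way, from 5.71, 5.86, 6.09 and 5.55 to 1.89, 4.84, 4.23 and 4.83. Its change was -1.85 (SE 0.54, adjusted p = 0.026), with replicate 1 at 24 h far under its group. Without that array it was -1.17 and not called, as it was without replicate 2 or 3 at 12 h (-1.83, -1.76). E2f8, a repressor of E2F targets, changed by -1.36 (SE 0.40), and its call was lost without replicate 2 at 12 h (-1.17) or replicate 1 at 24 h (-1.06). Ccnd2, the cyclin D2 that FSH raises in granulosa cells, was not called (0.54, SE 0.28, adjusted p = 0.2).

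Of 18 p53 targets and apoptosis genes 2 rose and 2 fell, 11.1% each, near the 9.96% and 9.19% of all genes. Gadd45a, a growth arrest gene, went from 8.08, 8.13, 7.56 and 8.06 to 9.33, 10.16, 9.81 and 9.07, a change of 1.64 (SE 0.32, adjusted p = 0.0028). Its relative Gadd45b moved the other way, from 8.13, 7.91, 7.74 and 7.93 to 7.47, 7.19, 7.22 and 6.86 (-0.74, SE 0.19, adjusted p = 0.012). The groups of both genes were apart. Trp53inp1 (0.38, SE 0.10) lost its call without replicate 3 at 24 h (0.34) and with median centring (0.20). Tnfrsf10b (-0.59, SE 0.19) kept its call without 1 of the 8 arrays, replicate 3 at 24 h.

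Of 22 heat shock and unfolded protein response genes 7 fell and 1 rose (31.8% and 4.55%, against 9.19% and 9.96% of all genes). The median was -0.29, and 4 fell without replicate 1 at 12 h or replicate 1 at 24 h. The call of the one that rose, Herpud1 (0.40, SE 0.13), a factor of protein degradation at the endoplasmic reticulum, was kept without only replicate 4 at 12 h or replicate 1 at 24 h. Hspa1b, an inducible Hsp70, changed by -1.33 (SE 0.34, adjusted p = 0.013) and its partner Dnajb1 by -0.35 (SE 0.08, adjusted p = 0.0088). The small chaperone Hspb8 changed by -0.64 (SE 0.17), with the call lost without replicate 1 at 24 h (-0.55), and Atf4, the factor of the integrated stress response, by -0.51 (SE 0.13), with the call lost without replicate 3 at 24 h (-0.43).

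Glutathione and antioxidant genes moved in both directions, 9 lower and 5 higher of 25. Gstm2, a glutathione transferase, read 10.52, 10.31, 10.15 and 10.49 at 12 h and 11.39, 11.75, 11.47 and 11.54 at 24 h, a change of 1.17 (SE 0.13, adjusted p = 6.4e-05). Gstm1 changed by 0.96 (SE 0.12) and Gstt1 by 1.49 (SE 0.20), with no overlap in either. Genes of the Gstm cluster are near copies, so their probe sets may share signal. Srxn1, sulfiredoxin, went from 9.87, 9.84, 10.31 and 10.09 to 8.73, 9.21, 8.92 and 8.92, a change of -1.08 (SE 0.19, adjusted p = 0.0013). Named after their values were seen, Nqo1 (-0.93), Gclm (-0.81), Txnrd1 (-0.63) and the cystine carrier Slc7a11 (-1.40) fell as well, while Gpx3 (1.60) rose.

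Glycolysis and hypoxia genes gave 2 lower and 0 higher of 28, a share near the 9.19% of all genes called lower. The glucose transporter Slc2a1 changed by -0.68 (SE 0.23, adjusted p = 0.049) and the collagen hydroxylase P4ha1 by -0.63 (SE 0.18, adjusted p = 0.026). Each kept its call without 3 of the 8 arrays, and without replicate 4 at 24 h they were -0.43 and -0.46. Oxidative phosphorylation gave 2 lower and 0 higher of 29, Cycs, cytochrome c (-0.54, SE 0.09), and Cyc1 of complex III (-0.46, SE 0.10), with a list median of -0.03, again near the share of all genes.

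Of 18 clock genes 4 rose and 2 fell (22.2% and 11.1%, against 9.96% and 9.19% of all genes). The share that fell was thus near that of all genes. The list median of 0.16 was -0.02 with median centring. Tef, a bZIP factor of the clock's output, read 6.13, 6.78, 6.31 and 6.70 at 12 h and 8.06, 7.53, 8.02 and 8.00 at 24 h, a change of 1.42 (SE 0.17, adjusted p = 6.9e-05). Dbp, of the same family, went from 8.43, 7.64, 7.61 and 7.85 to 9.22, 9.23, 8.64 and 8.73, a change of 1.07 (SE 0.21, adjusted p = 0.0028). Nfil3, a repressor that competes with both factors for the same sites, went down from 9.33, 9.45, 8.76 and 9.26 to 8.65, 8.18, 8.11 and 7.91 (-0.99, SE 0.19, adjusted p = 0.0021). In these 3 genes no array of one time reached the range of the other. Nr1d2, the receptor REV-ERBβ, changed by 0.95 (SE 0.18, adjusted p = 0.002). The times of day of collection were not given in the sources used here, and time in culture and time of day cannot be told apart. A promoter stretch of Tef holds the E-box CACGTG to which the CLOCK and BMAL1 factors bind, shown in capitals. The windows of Dbp, Nfil3 and Nr1d2 held no match to this motif. The motif, its own reverse complement, was in 28.6% of the 21 promoters of tested clock genes and 9.81% of those of all tested genes.
Tef: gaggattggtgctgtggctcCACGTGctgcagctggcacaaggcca
It lies at chr15:81802526-81802571 (plus strand) of GRCm38.p6.

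Matrix genes gave 8 higher and 3 lower of 29 (27.6% and 10.3%, against 9.96% and 9.19% of all genes). Their median of 0.10 was -0.08 with median centring. With median centring 3 rose and 6 fell, and without an array the count of 8 lay between 2 and 7: 2 without replicate 3 at 24 h, 3 without replicate 1 at either time, 4 without replicate 4 at 12 h or replicate 2 at 24 h, and 5 without replicate 4 at 24 h. Col4a3, a collagen of basement membranes, changed by 1.75 (SE 0.36, adjusted p = 0.0035) from a 12 h mean under the filter level. Bgn, biglycan, changed by 0.95 (SE 0.25), with the call lost without replicate 3 at 24 h (0.83). Lox, the enzyme that cross-links collagen, read 7.96, 7.95, 5.49 and 9.04 at 12 h and 6.04, 4.74, 4.89 and 4.41 at 24 h. The change was -2.59 (SE 0.67, adjusted p = 0.013), though replicate 3 at 12 h lay inside the 24 h range. The laminin chain Lama5 changed by -1.30 (SE 0.31, adjusted p = 0.0087).

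Of 21 cytoskeleton and YAP target genes 4 fell and 1 rose (19.0% and 4.76%, against 9.19% and 9.96% of all genes). The list median of -0.14 was -0.32 with median centring. Tubb6, a tubulin, read 10.73, 10.83, 11.03 and 10.90 at 12 h and 9.83, 9.54, 9.99 and 10.18 at 24 h (-0.99, SE 0.14, adjusted p = 0.00035). The YAP target Ccn2 changed by -1.57 (SE 0.39) and its DNA-binding partner Tead1 by -0.47 (SE 0.13), the latter lost without replicate 2 or 3 at 12 h (-0.42, -0.39). Myl9, a myosin light chain of smooth muscle, was the one that rose, from 7.16, 7.08, 8.65 and 7.98 to 9.56, 10.05, 10.06 and 9.52 (2.08, SE 0.30, adjusted p = 0.00035). Of 16 junction genes 2 fell, the cadherins Cdh2 (-0.45, SE 0.10) and Cdh1 (-1.04, SE 0.33), and 0 rose. The share that fell was 12.5%, against 9.19% of all genes. Cdh1 kept its call without 2 of the 8 arrays, replicate 2 at 12 h and replicate 4 at 24 h.

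**Figure D4:**
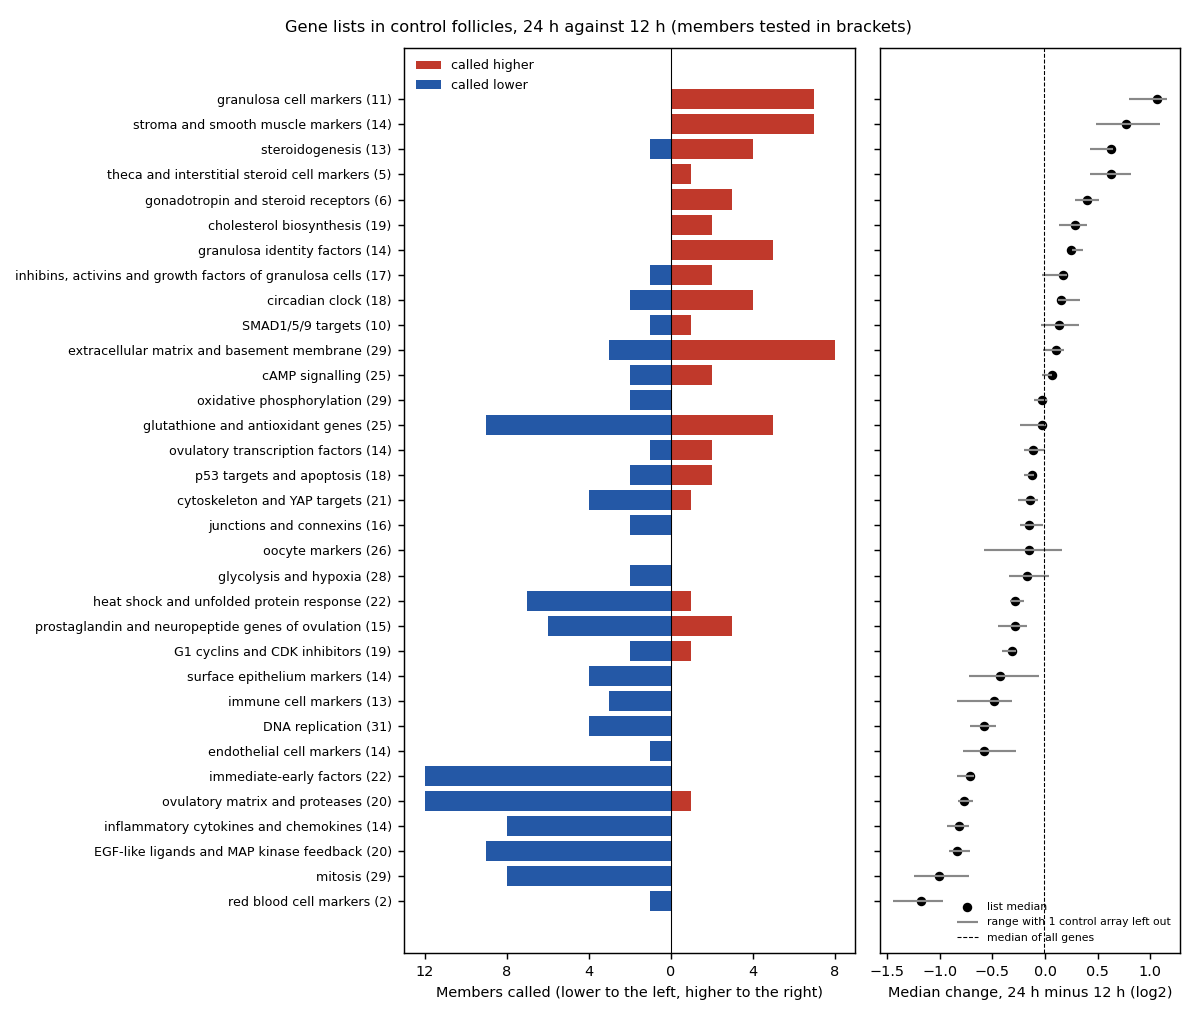
Gene lists in control follicles, sorted by median change. Left, members called lower (blue, to the left) and higher (red, to the right) at 24 h, with the number tested in brackets. Right, the median change of each list (point), its range when 1 control array is left out (line) and the median of all genes, -0.01 (dashed). Granulosa cell markers have the highest median, 1.07; mitosis has the lowest of the function lists, -1.01.

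Markers of the cell types a dissected follicle can carry were set beside these changes. In such bulk samples fewer cells of a type and less RNA per cell cannot be told apart. Granulosa markers, with 7 of 11 higher and 0 lower, had a mean of 8.24 ± 0.63 (SD, n = 4) at 12 h and 9.17 ± 0.35 at 24 h. The 7 were Fshr, Inha, Foxl2, Hsd17b1, Nr5a2, Esr2 and Amhr2, all described above, so they are no separate view of granulosa cell content. Amh was the 1 member below 0 (-1.08, not called). The 12 h arrays read 8.23, 8.75, 7.35 and 8.62 and the 24 h arrays 8.66, 9.33, 9.43 and 9.27, so the groups overlapped at replicate 1 of 24 h. Without replicate 3 at 12 h or replicate 2 at 24 h 4 were called. Oocyte markers gave 0 called of 26, a median of -0.15 and means of 7.96 ± 1.01 and 7.77 ± 0.68. Gdf9 (-0.38, SE 0.51) and Bmp15 (0.12, SE 0.52) were not called, and Bmp15 was -0.064 with median centring. The 12 h array with the lowest granulosa mean, replicate 3, had the highest oocyte mean, and its part in the granulosa changes beyond the values without it was not tested.

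Stroma and smooth muscle markers gave 7 higher and 0 lower of 14, with array means from 6.50 to 8.20 at 12 h and from 7.69 to 8.23 at 24 h. Dcn, decorin, went from 7.64, 8.46, 8.15 and 8.25 to 9.35, 9.46, 9.64 and 9.74 (1.42, SE 0.24, adjusted p = 0.001), with the groups apart. Tcf21 changed by 1.04 (SE 0.25), Dpt by 1.06 (SE 0.29) and Col1a1 by 0.98 (SE 0.26). Dpt lost its call without replicate 1 or 2 at 12 h (0.90, 0.89) or replicate 1 at 24 h (0.91), and Col1a1 without replicate 3 at 24 h (0.83). Without replicate 1 at 12 h, the lowest in these markers, 3 were called higher and 1 lower. The count was 3 higher without replicate 3 at 24 h and 4 without replicate 1 at 24 h. Several of these collagens are in the matrix list too, and the part of stroma in its changes was not tested. Theca and interstitial steroid cell markers gave 1 higher, Hsd3b1, of 5 tested, and their array means lay between 8.89 and 9.22 at 12 h and between 9.45 and 10.10 at 24 h.

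Immune markers gave 3 lower and 0 higher of 13 (23.1% lower, against 9.19% of all genes). Their array means lay between 5.63 and 6.90 at 12 h and between 4.94 and 5.90 at 24 h. Csf1r, the receptor that macrophages need, read 8.03, 8.57, 7.70 and 7.69 at 12 h and 5.63, 5.98, 5.33 and 6.13 at 24 h (-2.23, SE 0.33, adjusted p = 0.00038). Cd74 changed by -1.74 (SE 0.42) and Cd14 by -1.62 (SE 0.40). The macrophage markers Lyz2 (0.11), Tyrobp (-0.10) and Cd68 (-0.08), named after their values were seen, were not called. The defining leukocyte genes Ptprc, Adgre1 and Cd3e had means under the filter level. Endothelial markers lay below 0 in 14 of 14, with a median of -0.58. Their means read 6.36, 6.60, 7.92 and 7.18 at 12 h and 6.18, 6.45, 6.63 and 6.53 at 24 h, so the groups overlapped. With 1 control array left out the median lay between -0.78 and -0.28, and in the AMH arm it was 0.02. The share called lower was 7.14%, against 9.19% of all genes. Emcn was the only one called (-1.22, SE 0.41, adjusted p = 0.047), and it lost its call without any of 6 arrays (-0.86 without replicate 3 at 12 h). Surface epithelium markers gave 4 lower and 0 higher of 14 (28.6% lower, against 9.19% of all genes). The count was 2 lower without replicate 1 or 3 at 12 h or replicate 1 or 3 at 24 h. Krt18 changed by -1.07 (SE 0.19), Krt8 by -0.84 (SE 0.15) and Lgr5 by -1.63 (SE 0.49), the last kept without 4 of the 8 arrays. Of 2 tested red blood cell markers 1 was called, the β-globin Hbb-b2. It fell from 6.11, 6.51, 7.99 and 7.13 to 4.75, 3.03, 4.89 and 4.11 (-2.74, SE 0.52, adjusted p = 0.002). The other member went the other way (0.37) and was not called. The part of blood, immune and surface cells in the fall of the cytokine and early response lists was not tested.

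**Figure D5:**
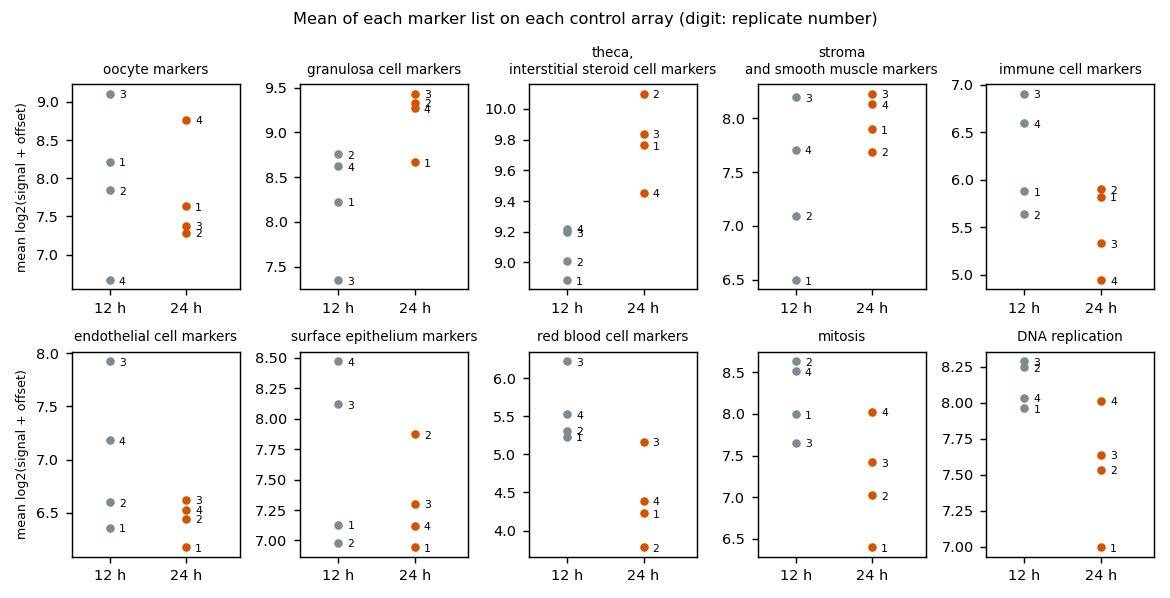
Mean log2(signal + offset) of 8 cell type marker lists and of the mitosis and DNA replication lists on each control array, at 12 h (grey) and 24 h (orange), each point labelled with its replicate number; the axes differ between panels. Granulosa means lie between 7.35 and 8.75 at 12 h and between 8.66 and 9.43 at 24 h, and replicate 3 at 12 h has the highest oocyte mean, 9.11.

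The same time contrast in AMH-treated follicles, which shares no array with the controls but was drawn from the same pools within each time, called 1008 genes (8.28%). Of the control calls 33.0% were called in the AMH arm in the same direction, which is 76.4% of the calls of that arm. A same sign was found for 97.6% of the control calls and 76.6% of all genes, and the changes correlated at r = 0.784 across the 12172 genes, which are not independent replicates. In the test of the difference between the arms limma called 0 genes, with 474 at an unadjusted p under 0.05 and a lowest adjusted p of 0.237, and 2 genes with array weights. So no change described here was shown to be particular to control follicles. All 12 falls and 12 rises were smaller with AMH, from 1.35 to 4.00 among the falls and 1.18 to 3.66 among the rises, but these genes were chosen for their size in controls. Foxl2 (1.04), Gstm2 (1.14) and Cd44 (-1.93) changed in the AMH arm by nearly as much as in controls. Gadd45a was -0.30 with AMH against 1.64 without, a difference of 1.93 (SE 0.46, adjusted p = 0.954). Dpt was 2.99 with AMH against 1.06, a difference of -1.93 (SE 0.41, adjusted p = 0.836). Tef was 0.60 with AMH against 1.42 (adjusted p of the difference 0.999), and Crem was -0.46 against -1.49 (adjusted p of the difference 0.999).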

How the data were processed

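The authors deposited linear signal intensity values per probe set. The submitters' processing notes name MAS5, its version being not given in the sources used here. All deposited intensity values shared a trimmed mean of 150.001 (2% trimmed at each end), and detection calls were not analysed here. Of 45101 probe sets 34945 carried 1 gene symbol in the platform annotation, 932 several and 9160 none, and 64 controls were left out.

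The signals were turned into log2(signal + 1.46), the offset being the 10th percentile of all values. A probe set was kept where its mean reached the 40th percentile (log2 4.18, signal 16.6), and the one with the highest mean stood for its gene. Of the 114 named genes that were called, 62 had another probe set over the filter, 48 had one called the same way and 0 had one of opposite sign. The 4 group means were fitted to all 16 arrays with R 4.3.3 and limma 3.58.1 (moderation with a trend in the mean), followed by Benjamini and Hochberg's adjustment. Tables and figures were made with Python 3.11.15, pandas 2.3.3 and matplotlib 3.10.9. The fit was tested on simulated data.

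The text names the 12 called genes with the largest rise and the 12 with the largest fall whose groups did not overlap, up to 4 called members per list with the smallest p, and 25 fixed genes, of which 21 were tested and 12 called. Genes named besides these were chosen after their values were seen and are not counted among the 114 called named genes. The genes, lists and tests were chosen with earlier results of these data known. The alternatives were other offsets, filters, scalings, probe set rules, blocks, weights and covariates, and each array left out in turn.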

Additional observations from a re-analysis of the deposited data

Results flagged for a closer look

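In 12 of the 262 groups of 4 arrays tested, 1 array lay far from the other 3, with a gap larger than Dixon's critical value; chance alone flags about 1 group in 20. Values are log2(signal + 1.46). At 12 h, replicate 2 was low in Mybpc3 (1.88, the others from 3.37 to 3.53) and high in Mmd2 (5.16, the others from 4.72 to 4.77) and Crem (8.78, the others from 7.92 to 7.97). Replicate 3 at 12 h was low in Plin5 (2.64, the others from 4.49 to 4.74), Bmp6 (8.47, the others from 9.38 to 9.43) and Gadd45a (7.56, the others from 8.06 to 8.13). Replicate 1 at 12 h was low in Has2 (6.00, the others from 6.95 to 7.12) and Btc (8.39, the others from 8.97 to 9.02). At 24 h, replicate 2 was high in Amhr2 (10.89, the others from 10.38 to 10.46) and low in Tef (7.53, the others from 8.00 to 8.06). Replicate 1 at 24 h was low in Prim1 (6.71, the others from 7.42 to 7.54), and replicate 4 at 24 h was high in the oocyte gene Gdf9 (9.50, the others from 7.89 to 8.10). In each gene but Gdf9, which was not called, the change was called with all arrays and without each array in turn.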

How the results depend on the processing

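The 2330 calls (1212 higher, 1118 lower) lay between 1705 and 2189 when 1 control array was left out. They were 3673 (2036 higher) with every probe set kept, 3945 (1989 higher, 1956 lower) with array weights, 1015 (579 and 436) at an adjusted p under 0.01 and 782 (508 and 274) with a change of at least 1. Median centring gave 612 higher and 1873 lower. With array weights 2 genes differed between the arms. The replicate number as a block in the 8 control arrays gave 1205 (668 and 537). Same-numbered arrays deviated together with correlations of 0.134, -0.006, -0.187 and -0.409. These values cannot decide whether the numbers pair the times, because arrays treated as 1 pool had a consensus correlation of only 0.134. Without the arrays extreme in oocyte signal (replicate 4 of both times) 1845 were called. With the median signal of each array as a covariate, chosen after seeing the data, 1652 were called, 710 of them lower. Of the 114 called named genes 0 reversed under any alternative, 80 kept their call without each array in turn and 64 under all alternatives. The block ended 25 calls and the median signal covariate 31. These 114 are the genes picked by the naming rules, and genes named besides were not among them. Bmp15, not called, reversed to -0.064 with median centring, -0.82 without the oocyte-extreme arrays, -0.36 with the median signal covariate, and -0.42 and -0.28 without replicate 4 at 12 h and at 24 h, within a range of -0.42 to 0.53 over the arrays left out. The causes were not tested. Genes near the filter level are limited by their low signal.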

Other observations

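The gene groups given here were all chosen after their values were seen and are described without a test. Of 35 lysosomal hydrolases 14 rose and 1 fell, with a median of 0.47 (0.29 with median centring, where 7 rose), against 9.96% of all genes called higher. Ppt1, a palmitoyl thioesterase, read 9.35, 9.51, 9.32 and 9.37 at 12 h and 10.47, 10.56, 10.36 and 10.44 at 24 h (1.07, SE 0.10, adjusted p = 1.7e-05), and the mannosidase Man2b2 changed by 1.73 (SE 0.29). Of 34 genes of branched-chain amino acid and fatty acid oxidation 16 rose and 0 fell, with a median of 0.46 (8 rose with median centring), and 10 rose without replicate 2 at 24 h; Abat changed by 1.63 (SE 0.24). Of 20 glutathione S-transferases by name 9 rose and 1 fell, with a median of 0.58, among them Mgst2 (2.36, SE 0.50).

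Of 38 proteasome subunits 21 fell and 0 rose, against 9.19% of all genes called lower, with a median of -0.40; Psmd7 went from 9.73, 9.82, 9.67 and 10.00 to 8.78, 9.24, 9.31 and 9.42 (-0.62, SE 0.13, adjusted p = 0.0043). Also lower were 4 of 8 CCT chaperonin subunits, 5 of 10 RNA exosome subunits, 6 of 19 nucleoporins, 7 of 19 cytosolic aminoacyl-tRNA synthetases and 9 of 38 Eif translation initiation factors, with 0 higher in each. With median centring 12 nucleoporins, 12 synthetases and 15 Eif factors were lower. Single arrays moved the counts too: 2 CCT subunits were called without replicate 3 at 12 h or replicate 3 or 4 at 24 h, 3 exosome subunits without replicate 3 at 12 h or replicate 2 or 3 at 24 h, 3 nucleoporins without replicate 2 or 3 at 12 h and 11 synthetases without replicate 2 at 24 h. Of 17 genes of serine synthesis and amino acid transport 8 fell and 1 rose. Phgdh, the first enzyme of serine synthesis, read 10.44, 10.26, 10.77 and 10.13 at 12 h and 8.82, 9.45, 8.88 and 8.45 at 24 h (-1.50, SE 0.21, adjusted p = 0.00029), and Psat1 changed by -1.54 (SE 0.20).

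Both hedgehog ligands of granulosa cells were called higher: Ihh went from 4.70, 4.51, 4.58 and 3.80 to 5.94, 6.66, 7.40 and 7.69 (2.53, SE 0.62, adjusted p = 0.0099) and Dhh from 7.22, 7.07, 6.23 and 7.11 to 7.91, 8.78, 8.76 and 8.88 (1.68, SE 0.29, adjusted p = 0.0011). Of 11 tested genes of that pathway 2 rose and 1, Gli3, fell (-1.17, SE 0.36). These shares were 18.2% and 9.09%, against 9.96% and 9.19% of all genes. The list median of 0.07 was -0.11 with median centring. The groups of Gli3 overlapped, and its call did not hold without each array in turn. Of 11 genes of retinoic acid synthesis and response 2 rose and 3 fell (18.2% and 27.3%, against 9.96% and 9.19% of all genes). The largest fall was that of Aldh1a3, an enzyme that makes retinoic acid. It went from 6.93, 6.62, 6.11 and 7.00 to 3.85, 3.39, 4.46 and 4.39 (-2.64, SE 0.29, adjusted p = 4.6e-05).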
